A study of Mus musculus with 4 samples.

Results

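The 39 genes of the 4 mouse Hox clusters were examined in the frontonasal prominence (FNP), the part of the embryonic face that forms the forehead and the middle of the nose and upper lip. They were taken as every row named Hox followed by a cluster letter (a to d) and a paralogue number, which gave 39 of the 33708 rows of the table. FNPs of 4 FVB/NJ embryos at E10.5 and 29 somites had been sequenced from poly(A) RNA. WT (Smchd1+/+) was represented by 1 female and 1 male embryo and MD43 (Smchd1MommeD43/MommeD43) by 2 male embryos. MD43 is an ENU-induced missense allele of Smchd1, carried on both chromosomes, which encodes a non-canonical SMC protein that silences the inactive X chromosome and clustered autosomal genes. The study compared these FNPs to see how the allele acts on gene expression in the developing face. The embryo numbers in the labels can be read as the male WT embryo and 1 MD43 embryo sharing a mother, which is an inference. Sex differed between the genotypes. Smchd1 itself had a log2 RPKM (reads normalised to exon length and library size) of 3.31 in WT and 3.30 in MD43, a level that cannot check the labels of a missense allele.

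Hox genes encode homeodomain transcription factors that give cells along the body axis their position. In each cluster the genes at the 3′ end, with low paralogue numbers, are used earliest and furthest forward, and those at the 5′ end are used later and nearer the tail. Their expression normally ends in the hindbrain, so that neural crest cells that leave the forebrain and midbrain to build the FNP carry none, and ectopic Hox expression in such cells is known to disturb the face. Outside their domains the clusters are held silent by Polycomb complexes.

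Each genotype had 1 value per gene, which was the average over both libraries of their log2 RPKM, with 0.9 reads in place of 0. With the exon length of a gene, this value gave back the product of the reads in both libraries. The product 0.81 stands for no read in either library, 0.9 times a whole number for reads in exactly 1, and most other whole numbers for reads in both. Which embryo the reads came from was not recorded, and some products allow more than 1 split. The square root of the product, the geometric mean of the libraries, was used as the read number of a genotype. The values imply a depth per library, as the geometric mean of both libraries, of 16055882 reads in WT and 22328791 in MD43. Their ratio was 1.39, so that 1 read counted for less in MD43. As the libraries were merged, no difference between genotypes could be tested against the spread between embryos. Standard errors (SE) and intervals below cover counting error only. They take both libraries of a genotype as equally read, so they are too small where the split was uneven. Replicates were separate embryos.

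Promoters of the genes the results turn on are shown first, because the clusters are known for promoters rich in CG dinucleotides, the sequences at which Polycomb complexes gather. Hoxb1, Hoxa7 and Hoxb8 had the highest MD43 levels among members with a promoter sequence, and Hoxa13 and Hoxa5 had the most CG dinucleotides among members without a read. Each sequence is from RefSeq (GRCm38.p6), runs 5′ to 3′ on the strand of its gene from 250 bases before to 50 bases from the transcript start on, and has CG in capitals. They are Hoxb1 (chr11:96365508-96365807, plus strand), Hoxa7 (chr6:52218524-52218823, minus), Hoxb8 (chr11:96281655-96281954, plus), Hoxa5 (chr6:52204538-52204837, minus) and Hoxa13 (chr6:52260831-52261130, minus).
Hoxb1: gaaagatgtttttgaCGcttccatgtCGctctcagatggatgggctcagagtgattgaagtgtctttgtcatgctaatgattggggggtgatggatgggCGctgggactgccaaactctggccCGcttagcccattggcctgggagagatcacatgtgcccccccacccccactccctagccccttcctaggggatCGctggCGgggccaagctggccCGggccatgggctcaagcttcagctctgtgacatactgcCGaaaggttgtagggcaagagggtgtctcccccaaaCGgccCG
Hoxa7: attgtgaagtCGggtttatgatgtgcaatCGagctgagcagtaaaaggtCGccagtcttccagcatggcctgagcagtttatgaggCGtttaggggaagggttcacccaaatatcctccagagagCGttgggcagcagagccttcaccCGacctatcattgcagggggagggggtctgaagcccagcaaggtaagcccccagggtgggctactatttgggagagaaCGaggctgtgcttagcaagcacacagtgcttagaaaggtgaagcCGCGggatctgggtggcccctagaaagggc
Hoxb8: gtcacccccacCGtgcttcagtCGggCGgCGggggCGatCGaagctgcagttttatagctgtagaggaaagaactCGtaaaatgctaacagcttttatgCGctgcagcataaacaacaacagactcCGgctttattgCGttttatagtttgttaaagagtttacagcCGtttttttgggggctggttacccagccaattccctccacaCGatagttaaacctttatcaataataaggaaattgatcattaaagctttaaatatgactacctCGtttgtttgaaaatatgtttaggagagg
Hoxa5: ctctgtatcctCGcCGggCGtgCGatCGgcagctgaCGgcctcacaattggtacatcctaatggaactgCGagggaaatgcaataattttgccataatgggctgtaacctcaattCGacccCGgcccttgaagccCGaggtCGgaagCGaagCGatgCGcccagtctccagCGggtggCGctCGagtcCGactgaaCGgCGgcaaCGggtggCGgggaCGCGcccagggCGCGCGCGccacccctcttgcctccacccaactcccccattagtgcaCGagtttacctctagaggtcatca
Hoxa13: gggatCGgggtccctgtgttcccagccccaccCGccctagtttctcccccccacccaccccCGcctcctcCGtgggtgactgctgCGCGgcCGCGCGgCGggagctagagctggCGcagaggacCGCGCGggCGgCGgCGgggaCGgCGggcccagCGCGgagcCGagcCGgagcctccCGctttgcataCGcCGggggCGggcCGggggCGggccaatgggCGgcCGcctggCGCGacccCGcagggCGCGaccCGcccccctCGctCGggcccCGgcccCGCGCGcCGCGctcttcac
The promoters of Hoxb1, Hoxa7 and Hoxb8 held 10, 9 and 13 CG, and those of Hoxa5 and Hoxa13 held 29 and 45. Hoxa5 and Hoxa13 were picked for their CG number, so this contrast was set by the choice and nothing is read from it. RefSeq promoters were found for 22 of the 39 genes, 24 in all, with a median of 14.5 CG against 7 over 32851 promoters of all genes. At least 10 CG were present in 70.8% of the Hox promoters (17 of 24) and in 43.5% of all. The 13 promoters of 13 genes with a read had a median of 13 CG, with a range of 4 to 37. The 11 promoters of 9 genes without a read had a median of 21, with a range of 4 to 45. Of short motifs searched on both strands, CCAAT occurred in 15 Hox promoters (62.5%, against 37.4% of all), TATAAA in 4 (16.7% against 13.6%) and TGATNNAT, the letters of a site for Hox proteins with their Pbx partners, in 4 (16.7% against 8.85%). Matches of different motifs may overlap, and a match describes the letters alone.

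Hox RNA was close to absent in both genotypes. At least 1 read was found for 20 of the 39 genes in WT and for 20 in MD43, that is 51.3% in each, whereas 74.4% of protein-coding genes had a read in WT and 75.2% in MD43 (59.0% and 60.1% of all genes). Reads in both genotypes were found for 16 Hox genes (41.0%, against 72.7% of protein-coding genes). No read was listed in any of the 4 libraries for 15 Hox genes (38.5%), against 23.1% of protein-coding and 37.2% of all genes. These were Hoxa2, Hoxa4, Hoxa5, Hoxa6, Hoxa10, Hoxa13, Hoxb13, Hoxc6, Hoxc10, Hoxc11, Hoxc12, Hoxd3, Hoxd10, Hoxd11 and Hoxd12. A limit of 3 reads in each library puts their levels below 0.0444 to 0.214 RPKM in WT and below 0.0319 to 0.154 RPKM in MD43, depending on exon length. The genes with a read had a median exon length of 2570 bases and those without one a median of 2020 bases.

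Over all 39 genes the reads came to between 74 and 76 in the 2 WT libraries together, and to between 95 and 212 in the 2 MD43 libraries, or 68.3 to 152 at the WT depth. Summed RPKM was 0.796 in WT and 0.813 in MD43, a log2 ratio of 0.03 with a 95% counting interval of -0.41 to 0.47. This sum adds geometric means of the 2 libraries, which are lower where the split was uneven. The interval leaves out the uncertainty of the splits, so equal totals are not shown. No Hox gene reached 10 reads in geometric mean. The highest level was 0.0795 RPKM in WT, of Hoxb9, and 0.116 RPKM in MD43, of Hoxb1. Of protein-coding genes, 30.6% lay below that level in WT and 34.6% in MD43.

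**Figure D1:**
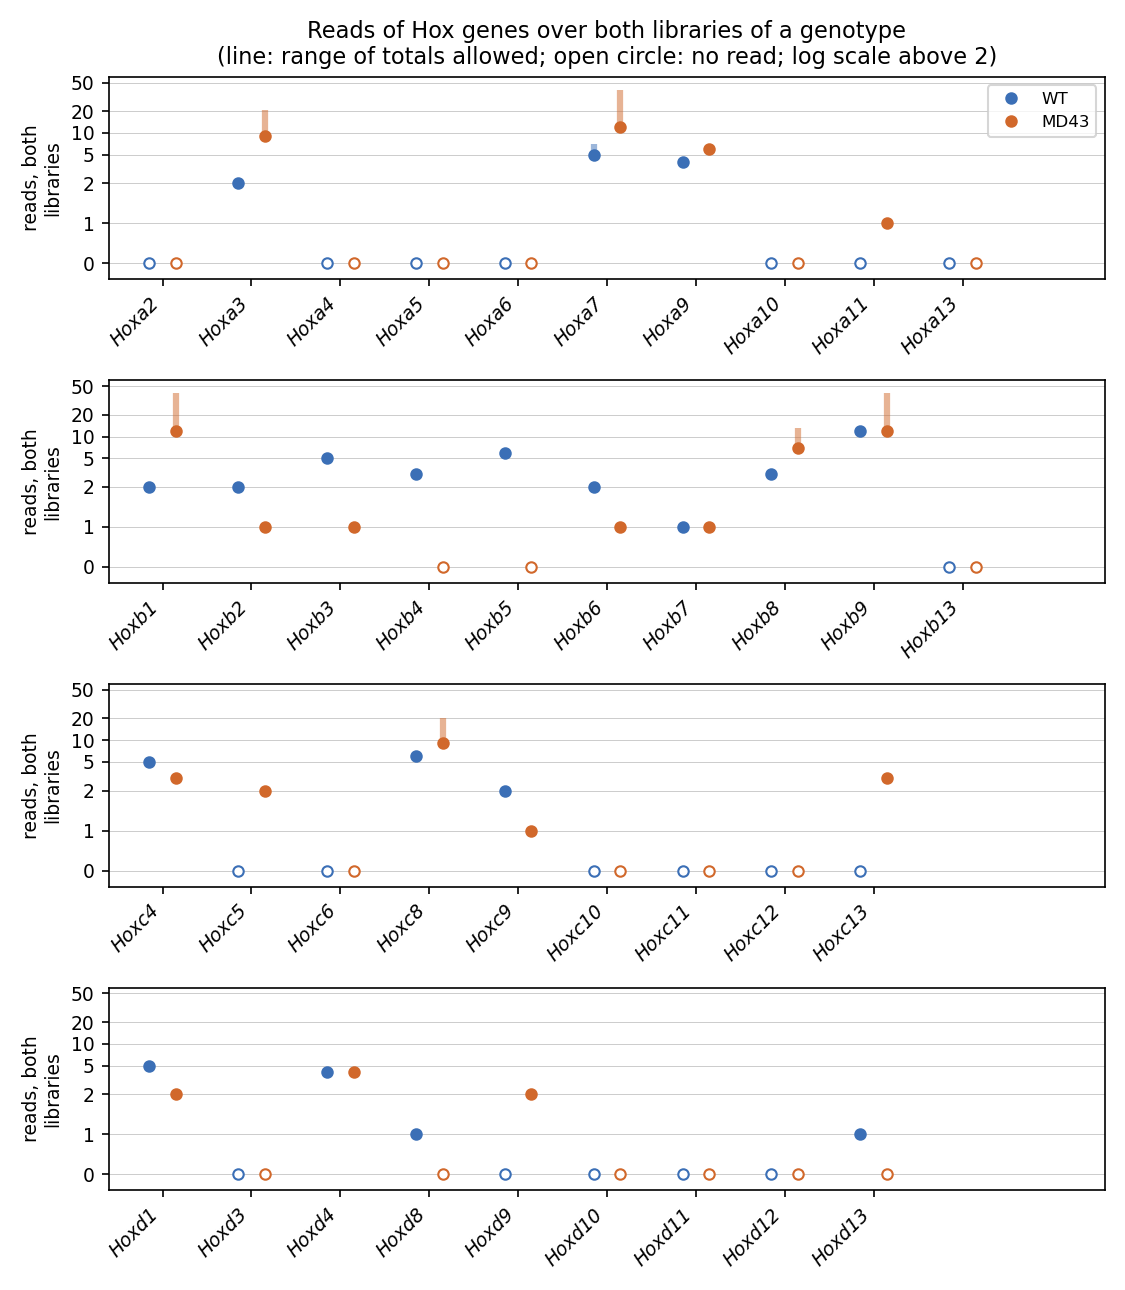
Reads of the Hox genes in the 2 WT (blue) and 2 MD43 (orange) libraries together, by cluster in order of paralogue number from left to right, on an axis that is logarithmic above 2. Points mark the smallest total that the deposited value allows, lines reach up to the largest, and open circles mark no read. The WT totals reach 12 (Hoxb9) and the MD43 totals 40 at most, and 15 genes have open circles in both genotypes.

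Most Hox genes read in WT had reads in only 1 library, which need not have been the same library for each gene. Of the 20 genes with reads in WT, 16 had them in exactly 1 library (80.0%) and 4 in both. Of the 20 in MD43, 10 had reads in exactly 1 library (50%) and 5 in both, and for 5 this could not be settled. Among all genes with a read but no more reads than the highest Hox gene, 61.1% of those seen in WT and 56.2% of those seen in MD43 had reads in exactly 1 library. A minimum of 3 reads in geometric mean left 1 gene in WT and 7 in MD43.

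In the Hoxa cluster (chr6:52155590-52260880, GRCm38), 4 of 11 genes had reads in WT and 5 in MD43, with a summed RPKM of 0.134 and 0.223. Hoxa3, a gene of the third pharyngeal arch, had 2 reads in 1 WT library and 9 to 21 in both MD43 libraries together (log2 RPKM -6.17 and -4.91). Its gene model spans those of Hoxa4, Hoxa5 and Hoxa6, so that its reads are uncertain. Hoxa7, a trunk gene and the highest of the cluster, had 5 to 7 reads over both WT libraries and 12 to 40 in MD43 (log2 RPKM -4.24 and -3.42). Both Hoxa3 and Hoxa7 had a higher total in MD43 than in WT under every split, before any allowance for the deeper MD43 libraries. Other Hox genes, among them Hoxb1, Hoxb8 and Hoxc8, met the same condition. These genes stood out through their MD43 reads, so no direction is read from this. Hoxa7 overlaps Hoxaas3 on the opposite strand, so its reads are uncertain too. Hoxa9 had 4 reads in 1 WT library and 6 over both MD43 libraries (log2 RPKM -5.56 and -5.80), and Hoxa11, a limb and kidney gene, had 1 read in 1 MD43 library alone.

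The Hoxb cluster (chr11:96194316-96368256) was the most often read, with 9 of 10 genes in WT and 7 in MD43 and a summed RPKM of 0.371 and 0.350. Hoxb1, the gene of the fourth rhombomere of the hindbrain, had 2 reads in 1 WT library and 12 to 40 in MD43 (log2 RPKM -4.80 and -3.11). Hoxb9, a trunk gene, had 12 reads in 1 WT library and none in the other, and again 12 to 40 in MD43 (log2 RPKM -3.65 and -3.26). Hoxb8 had 3 reads over both WT libraries and 7 to 13 over both MD43 libraries (log2 RPKM -4.90 and -4.09). These 3 genes held most of the Hoxb reads of MD43.

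The other Hoxb genes had fewer reads in MD43 or as few. Hoxb2, which acts in the hindbrain, had 2 reads in 1 WT library and 1 read in MD43, and Hoxb6 had the same numbers. Hoxb3 had 5 reads in 1 WT library and 1 in MD43 (log2 RPKM -5.01 and -6.64). Hoxb4 had 3 reads over both WT libraries and Hoxb5 had 6 reads in 1 of them, and neither had a read in MD43 (log2 RPKM in WT -4.86 and -4.27). Hoxb7 had 1 read in each genotype. The 5′ gene Hoxb13 lies apart from the others and had no read.

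In the Hoxc cluster (chr15:102921103-103036852), reads were found for 3 of 9 genes in WT and for 5 in MD43, with a summed RPKM of 0.135 and 0.159. Hoxc8, a trunk gene, had 6 reads over both WT libraries and 9 to 20 in MD43 (log2 RPKM -4.35 and -3.90). Hoxc4, at the 3′ end, had 5 reads in 1 WT library and 3 over both MD43 libraries (log2 RPKM -4.28 and -5.34), and Hoxc9 had 2 reads in 1 WT library and 1 in MD43. Hoxc5 and Hoxc13, a gene of hair and nail, were read in MD43 alone, with 2 and 3 reads in 1 library. The gene model of Hoxc5 spans Hoxc6, Hoxc8, Hoxc9 and Hoxc10.

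In the Hoxd cluster (chr2:74668310-74765142), reads were found for 4 of 9 genes in WT and for 3 in MD43, and the summed RPKM was 0.156 and 0.0810. Hoxd1, the 3′ gene, had 5 reads in 1 WT library and 1 in each MD43 library (log2 RPKM -3.82 and -5.38). Hoxd4 had 4 reads in 1 library of each genotype (log2 RPKM -4.64 and -5.12). Hoxd8 and Hoxd13, the latter a gene of the digits, each had 1 read in WT alone, and Hoxd9 had 2 reads in MD43 alone. All Hoxd totals came to 11 reads in WT and 8 in MD43.

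Grouped by position, 6 of the 8 genes of paralogues 1 to 3 were read in each genotype. Of the 15 genes of paralogues 4 to 8, 10 were read in WT against 8 in MD43. The 16 genes of paralogues 9 to 13 gave 4 and 6. Reads in both genotypes were found for 3 of the 4 paralogue 9 genes, while no gene of paralogue 10 (3 genes) or 12 (2 genes) had any. Summed RPKM of the anterior, central and posterior group was 0.221, 0.416 and 0.159 in WT and 0.255, 0.341 and 0.216 in MD43. The posterior group was thus the least often read, although Hoxb9 was among the highest genes of both genotypes.

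Between the genotypes, 10 Hox genes were listed as higher in MD43 and 29 as lower, with a median difference of -0.48 on the log2 RPKM scale. A gene without reads was listed with this same difference of -0.48, because the MD43 libraries were deeper, and so were 38.2% of all rows. The median difference of all rows was -0.40, and over 15377 genes that reached 10 reads in either genotype it was 0.006. A difference of at least 2-fold was listed for 7 Hox genes, 5 lower (Hoxb3, Hoxb4, Hoxb5, Hoxc4 and Hoxd1) and 2 higher (Hoxa3 and Hoxb1). This was 29.2% of the 24 genes with a read, 20.8% lower and 8.33% higher. Among the 4633 genes with a read and no more reads than the highest Hox gene, 25.1% differed by as much, 19.6% lower and 5.44% higher (of all rows 6.34%, with 4.41% lower and 1.93% higher, and 8.20% where 3 reads were reached). The 5 lower genes had at most 3 reads in geometric mean in both genotypes, so no fold is given for them.

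More than 3 reads in geometric mean were reached by 6 Hox genes in MD43 and by 1 of them, Hoxb9, in WT. The log2 difference, MD43 minus WT, of Hoxb1 (ENSMUSG00000018973, chr11:96365752-96368256) was 1.69 ± 0.97 (counting SE), with a 95% interval of -0.22 to 3.59. For Hoxa3 (ENSMUSG00000079560, chr6:52169062-52213336) it was 1.26 ± 1.0, with an interval of -0.71 to 3.23. For Hoxa7 (ENSMUSG00000038236, chr6:52214491-52221854) it was 0.82 ± 0.77, for Hoxb8 (ENSMUSG00000056648, chr11:96281905-96285315) 0.82 ± 1.02, for Hoxc8 (ENSMUSG00000001657, chr15:102990607-102994111) 0.45 ± 0.84 and for Hoxb9 (ENSMUSG00000020875, chr11:96271457-96276595) 0.39 ± 0.70. Each of the 6 intervals included 0. All but Hoxb9 passed the minimum in MD43 alone, whose libraries were deeper. Passing in MD43 alone favours values above 0, so no direction is read from these genes. Hoxb4 (ENSMUSG00000038692, chr11:96318267-96321638) was the gene whose libraries were separate in every split, with 1 and 2 reads in WT and none in MD43. No Hox gene was separate in the other direction. Of the 4633 genes of like read number, 2.35% had WT above MD43 and 4.66% had MD43 above WT in every split.

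**Figure D2:**
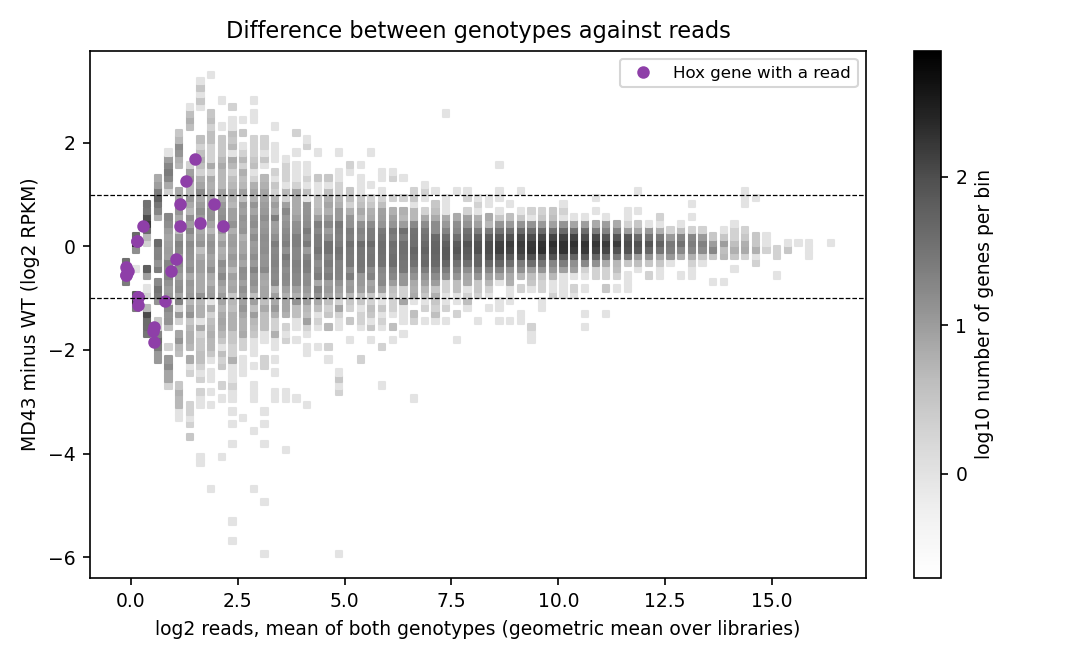
Log2 RPKM difference, MD43 minus WT, of each Hox gene with a read (purple, 24 genes) against the log2 of its reads, over a grey map of the number of all genes with a read per bin. Dashed lines mark 2-fold. The Hox genes lie at the left edge, where the listed differences of all genes are widest, and 7 of them lie beyond the lines.

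Most genes beyond the clusters were well read. Of the 5 nearest protein-coding genes on each side of each cluster, 40 in all, 36 had at least 10 reads, with a median log2 RPKM of 2.66 in both genotypes. Of all protein-coding genes, 37.2% had fewer than 10 reads in WT and 36.0% in MD43, and their median log2 RPKM was 0.62 and 0.49. Mtx2, a mitochondrial import gene 60.7 kb from the Hoxd cluster, was at 4.29 in WT and 4.26 in MD43, and Lnpk, an endoplasmic reticulum gene 88.9 kb away on the other side, was at 1.32 and 1.47. Beside the Hoxc cluster, the DNA repair gene Smug1 (116 kb) was at 2.33 and 2.15 and the RNA-binding gene Hnrnpa1 at 8.66 and 8.55. Next to Hoxa, Skap2 (143 kb) was at -0.45 and -0.47. The 4 flanking genes without 10 reads were Evx1 and Evx2, homeobox genes that share the 5′ ends of the Hoxa and Hoxd clusters, and Calcoco2 and Ttll6 beyond Hoxb13. Evx1 had 1 read in 1 WT library and 6 in 1 MD43 library, Ttll6 had 1 read in WT, and Evx2 and Calcoco2 had none. Skap1, an adaptor of T cells 96.3 kb from Hoxb1, rested on 4.24 reads in WT and 18.2 in MD43, a log2 difference of 1.62 ± 0.55. Its reads allow splits from 0 and 20 to 3 and 6 in WT and from 0 and 367 to 15 and 22 in MD43, so this SE may be too small.

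Within the clusters the table had 22 further rows, of which 12 had a read, 7 of 9 in Hoxa, 3 of 4 in Hoxb, 0 of 1 in Hoxc (Hotair) and 2 of 8 in Hoxd. Gm53, a long non-coding RNA gene between Hoxb13 and Hoxb9, had more reads than any Hox gene in WT, 8.66 in geometric mean over both libraries. It had no read in MD43. Its WT geometric mean was 4.01-fold above a limit of 3 reads in each MD43 library, allowing for depth. Its WT reads allow splits of 1 and 75, 3 and 25 or 5 and 15, so most came from 1 embryo. Hoxaas3, which runs antisense to Hoxa3 to Hoxa7, had 6.0 reads in WT and 11.8 in MD43. Hotairm1, a non-coding RNA known from myeloid cells, had 5 reads in 1 WT library and 1 in MD43, and Gm28308 had none in WT and 3.46 in MD43. Hoxb3os had 7 reads in 1 WT library and 1 in each MD43 library, and Hoxb5os had 4 in each genotype. Gm28230 had 3 WT reads and 4 MD43 reads, and Haglr, at the promoter of Hoxd1, 2 and 0. Hoxaas2 had 1 read in WT, and Gm15050, 5730596B20Rik and Hoxa11os had 1 each in MD43.

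A non-Hox row overlapped 17 of the 39 Hox genes, in 14 of them on the opposite strand, and whether counting used the strand was not stated, so reads of such pairs cannot be told apart. Without these genes, 14 of 22 Hox genes had a read, and 9 had reads in both genotypes. Of the genes with a read, Hoxa9, Hoxb1, Hoxb4, Hoxb7, Hoxb8, Hoxb9, Hoxc4, Hoxc13, Hoxd1, Hoxd9 and Hoxd13 were free of overlaps with any other row. In the order of their starts, the rows without reads that hold the 15 unread genes formed 9 runs of 2.4 to 41.6 kb, each following and followed by a row with a read. Hoxa2, Hoxa4, Hoxa5, Hoxa6, Hoxc6, Hoxc10 and Hoxd3 among them overlap a row with a read.

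**Figure D3:**
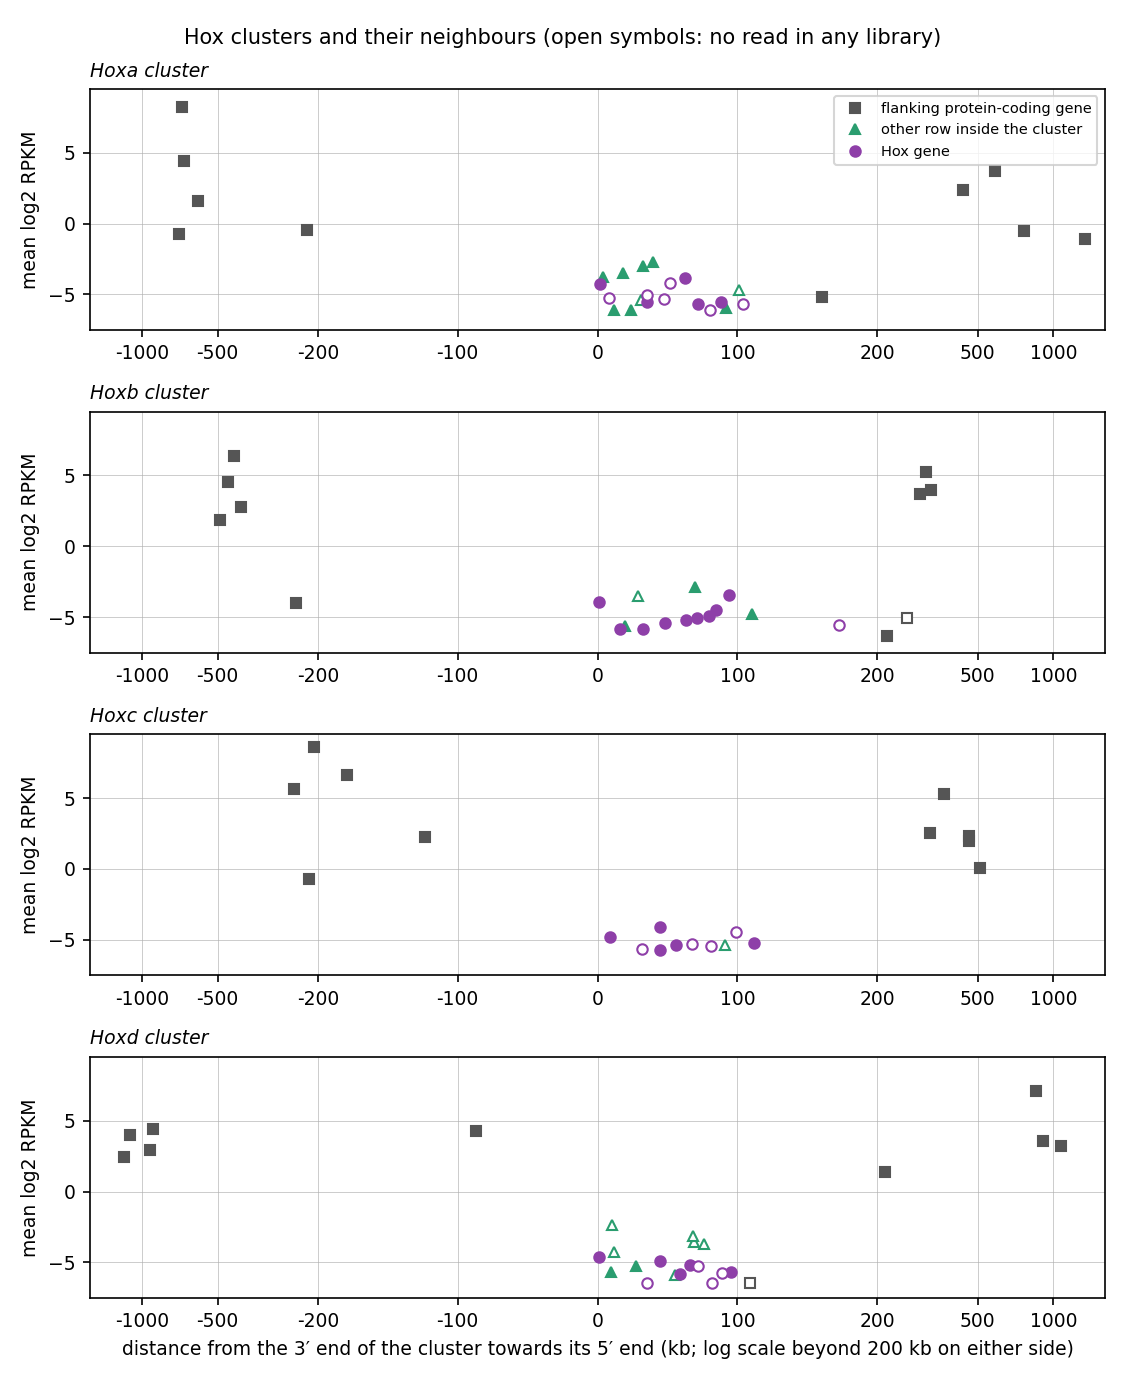
Mean log2 RPKM of WT and MD43 for the Hox genes (purple circles), other rows inside each cluster (green triangles) and the 5 nearest protein-coding genes on each side (grey squares), against the distance of the middle of each row from the 3′ end of its cluster in kb, on an axis that is logarithmic far from the cluster. Open symbols had no read in any library. Of the 40 flanking genes 36 had at least 10 reads, while every row inside a cluster lay below -2.

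Other homeobox families used in the head had genes at far higher levels in the same libraries, beside members as low as the Hox genes. All 6 Dlx genes, which pattern the jaw and forebrain, reached 10 reads in WT or MD43, and their median log2 RPKM was 2.19 in WT and 2.34 in MD43 (highest Dlx2, 2.53 and 2.54). The 3 Alx genes of the frontonasal mesenchyme had a median of 4.09 in both. Msx1, a gene of the facial primordia, was at 5.28 and 5.11. Irx3 led its family at 2.93 and 2.75, Six2 at 4.05 and 3.94, Pax6 at 3.38 and 3.03, and Lhx2 at 5.21 and 5.70. The medians were 3.11 and 3.01 for Msx and 3.18 and 3.08 for the family of Six2. They were lower for Irx (-0.14 and -0.69), Pax (-0.97 and -1.69) and Lhx (-0.27 and -1.54), against -5.02 and -5.54 for Hox. Both Hox medians were values of genes without a read. Over Hox genes with a read in the genotype they were -4.75 and -5.17. As the MD43 libraries were deeper, no difference between genotypes is read from these Hox medians. The lowest WT values with a read in the Dlx, Msx, Irx and Lhx families were -3.92, -4.82, -5.76 and -4.39, within the range of the Hox genes. Of these families, Pax alone had members without a read, 2 of 9. The 3 Alx genes together summed to 49.8 RPKM in WT and 64.3 in MD43, against 0.796 and 0.813 for all 39 Hox genes.

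Olfactory receptor genes, a family that the embryo hardly uses at this stage, were set beside them. Of 1087 Olfr genes, 1062 had no read (97.7%, against 38.5% of the Hox genes), and together they summed to 0.582 RPKM in WT and 0.589 in MD43. The highest, Olfr77, had more reads than any Hox gene, 22 and 28.

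**Figure D4:**
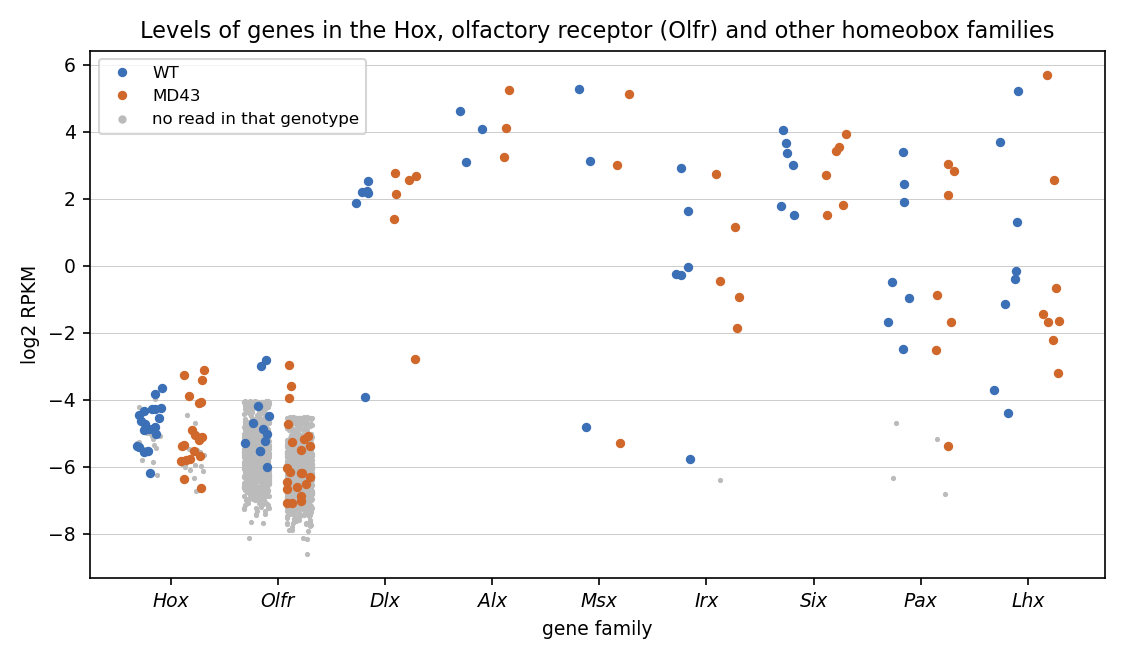
Log2 RPKM of every gene of 9 families in WT (blue) and MD43 (orange), with genes that had no read in that genotype in grey at the value the table gives them. No Hox gene lies above -3.11, whereas the highest genes of the Alx, Msx and Lhx families lie above 4 in both genotypes.

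The dissected tissue was checked with markers of the territories where Hox genes are and are not used. All 13 markers of the anterior territory had at least 10 reads, with a median log2 RPKM of 3.55 in WT and 3.56 in MD43, with Msx1 highest, and none differed by 2-fold (4.11% of genes with at least 10 reads did). Of 8 hindbrain markers, 6 had reads and 4 had at least 10, with medians of -1.49 and -4.35. Fgf3 was at -0.79 and -1.35 and Phox2a at -1.04 and -1.30. Olig3, a gene of dorsal progenitors that the forebrain also uses, had 32.1 reads in geometric mean in WT and none in MD43. Its WT geometric mean was 14.9-fold above a limit of 3 reads in each MD43 library, allowing for depth. How its WT reads were split between the embryos was not worked out. Egr2, which marks the third and the fifth rhombomere, had 2 reads in 1 WT library alone. The fall of the median rests on the no-read value of Olig3, and the 4 markers with at least 10 reads had a median difference of -0.48.

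Tail and trunk markers were low as well. Of 10 tail bud markers 9 had reads, with medians of -2.73 in WT and -1.94 in MD43, and none was past 2-fold with 10 reads. Cyp26a1 (1.77 and 1.84), Wnt3a (1.72 and 1.46) and Tbx6 (-1.48 and -1.41) were the highest, and Msgn1, a defining gene of presomitic mesoderm, had no read. Cyp26a1 and Wnt3a are also used in the head. All 8 trunk and limb markers had reads, with medians of -4.09 and -2.53. Log2 differences past 2-fold, with their counting SE, were listed for Meox2 (1.05 ± 0.63), Tbx4 (1.93 ± 0.79) and Tcf15 (-1.34 ± 0.32), beside 4.11% of all genes with as many reads. Meox2 (3.55 and 10.2 reads) and Tbx4 (2.0 and 10.6) reached 10 reads in MD43 alone, which favours a higher value there. Their highest members were Tcf15 (0.86 and -0.48), Uncx (-0.30 and -0.10) and Meox1 (-0.76 and -0.36). The part of neighbouring tissue in the Hox reads was not tested, and in bulk tissue fewer cells with Hox RNA and less Hox RNA per cell cannot be told apart.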

How the data were processed

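The FNPs of 2 WT and 2 MD43 embryos had been sequenced from 100 ng of RNA with a stranded TruSeq mRNA kit. The authors trimmed the reads with Trim Galore 0.4.4, mapped them with HISAT2 2.0.5 to GRCm38.p6 and quantified them in SeqMonk, and deposited log2 RPKM for autosomal genes, 1 merged value per genotype. Columns with the authors' fold change, mean and FDR were not used. Groups and replicates followed the sample labels.

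Rows were joined to GENCODE M21 (33101 of 33708 matched, and 6 below the value of no reads were left out). Reads were recovered from the log2 RPKM and union exon length, accepted within 0.2%, in Python 3.11.15 with numpy 2.4.6 and pandas 2.3.3, and the recovery was tested on simulated data. Counting SEs treat recovered reads as Poisson and as equal in both libraries of a genotype. Promoters ran from 250 bases before to 50 after the RefSeq start.

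Since the table turned out to hold log2 values and no counts per library, no test was run. A gene was taken as absent where neither library had a read. Every Hox gene with a read was named, with all rows with a read inside the clusters, the top member of each family, and of each marker list the 3 highest members and those past 2-fold with 10 reads. Single further genes were chosen after their values were seen. The members and lists were chosen with earlier results of these data known. Some single genes that this rule covers are not reported here, and counts and sums include them.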

Additional observations from a re-analysis of the deposited data

How the results depend on the processing

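Of 22 alternative values, 9 stayed within 1.5 times a main count or near a main value, and 13 moved. With at least 3 reads in geometric mean, Hox genes with reads fell from 20 to 1 in WT and to 7 in MD43, and with MD43 reads lowered to the WT depth and at least 1 read kept, 11 remained in MD43 (14 without lowering, an alternative chosen after seeing the data). Leaving out genes with an overlapping non-Hox row took those with reads in both genotypes from 16 to 9. The 7 genes past 2-fold became 12 at 1.5-fold, 0 at 4-fold, 2 with at least 3 reads, 0 with at least 10 reads and 0 with a pseudocount of 0.1 or 1 RPKM. The median difference of -0.48 was -0.08 with a pseudocount of 0.1 RPKM, -0.01 with 1 RPKM and, chosen after seeing the data, -0.36 over genes with reads in both genotypes. The summed log2 ratio of 0.03 was -0.16 with genes at their floor value and, chosen after seeing the data, -0.12 without Hoxb1, both within its counting interval.

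No paired analysis was possible because each genotype has a single merged value. For the same reason fits without each replicate, DESeq2 and edgeR were not run. Depth limits all Hox values, since none rests on 10 reads in geometric mean.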

Other observations

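Genes that act with the Hox clusters or on them were present. Of the TALE homeodomain genes, which encode partners of Hox proteins on DNA, all 9 had at least 10 reads, with median log2 RPKM of 2.83 in WT and 3.01 in MD43 (highest Pbx2). All 15 Polycomb genes had at least 10 reads, with medians of 4.43 and 4.42, Ezh2, Cbx2 and Rnf2 being highest. Of the trithorax genes 9 of 10 were in the table and 8 had reads, with medians of 4.24 and 4.26 (Psip1, Dpy30 and Wdr5). No member of these 3 lists differed by 2-fold between the genotypes. The ParaHox genes, sisters of the Hox clusters, had reads for 4 of 5, led by Gsx2 (1.47 and 1.14), Gsx1 (-0.05 and -1.11) and Cdx1 (-2.43 and -1.70), and Pdx1 had none. Gsx1 was lower in MD43 by a log2 difference of -1.06 ± 0.31 (counting SE).

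Retinoic acid is a known inducer of 3′ Hox genes. All 8 genes of its synthesis, breakdown and receptors had reads, with medians of 1.13 and 0.95, led by Aldh1a3 (4.03 and 4.99), Rarg (3.44 and 3.35) and Rara (2.67 and 2.66). Summed RPKM of the 8 genes was 41.1 in WT and 54.6 in MD43. The synthesis gene Aldh1a3 was higher in MD43 by a log2 difference of 0.96 ± 0.03 (counting SE). Aldh1a1, also a synthesis gene, had 66.0 reads in WT and 12.8 in MD43, a log2 difference of -2.84 ± 0.31. Its MD43 reads allow splits from 0 and 183 to 11 and 15. Aldh1a2, chosen here after its values were seen, had 4.47 reads in WT and none in MD43.

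A gene listed without reads can be one that the table does not cover. Men1, the trithorax gene without reads, lay in a stretch of 490.2 kb on chromosome 19 in which 20 rows, among them the general splicing gene Sf1, had no read. Ndufs3, a respiratory chain gene on chromosome 2, was the only 1 of 226 genes of general complexes at that value, in a stretch of 32.4 kb. The stretches with unread Hox genes were 2.4 to 41.6 kb long, so their length does not tell an uncovered from a silent gene.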
